A study of Xenopus laevis with 12 samples.

Results

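Splicing factors and heterogeneous nuclear ribonucleoproteins (hnRNPs) were followed in single Xenopus laevis embryos at stage 11.5, a late gastrula stage. The genes were chosen by symbol: all named genes on the array whose symbol starts with snrp, sf3a, sf3b, u2af, prpf, srsf or hnrnp, with the L and S copies that the tetraploid ancestry of this frog left for many genes (homeologs) counted separately. That gave 68 of 7531 named genes, 32 of them L copies and 36 S copies, from 54 different genes. Where several probe sets (groups of array probes for 1 transcript) carried a symbol, the one of highest mean log2(signal + 16) stood for the gene. The families held 12 snrp, 10 sf3a and sf3b, 2 u2af, 10 prpf, 14 srsf and 20 hnrnp genes. Whole-embryo RNA came from 6 embryos given GFP mRNA, which encodes a jellyfish fluorescent protein and served as the control, and from 6 given mRNA for Nkx2-5, a homeodomain protein that takes part in forming the heart, together with GFP mRNA. All 12 were injected at the 8-cell stage, so the control embryos carry GFP mRNA too, and each was measured on an array of its own. The labels name no strain, dose or site of injection and a single experiment, and they do not say whether the embryos shared parents, so a p-value reflects spread among these 12 embryos, which may be less than among families.

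Introns are removed from transcripts by the spliceosome, which is built anew on each intron from small nuclear ribonucleoproteins (snRNPs) and many further proteins. The U1 snRNP binds the start of the intron, the U2AF proteins and the U2 snRNP with its SF3a and SF3b complexes mark the end and the branch point, and the U4, U5 and U6 snRNPs then join and are rearranged into the active enzyme. SR proteins, encoded by srsf genes, and hnRNPs bind exons and introns and raise or lower the use of nearby splice sites, and hnRNPs also act in mRNA transport, stability and translation. Eggs are loaded with maternal RNA for this machinery, and the embryo's own transcription starts at the mid-blastula transition, before the stage measured here.

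Since the brightest probe set stood for each symbol, the brightness of the members is in part set by that choice and is given only as a description. Of the 68, 65 lay above the median brightness of the 15491 probe sets tested, which is why differences are set below beside those of brighter probe sets too. Signals of different probe sets depend on their probes, so no order of levels between genes is drawn from them. The 3 members below that median were hnrnpa2b1.L, hnrnpa3.L and srsf5a.L, and 2 further probe sets annotated to both copies of a gene of these families were left out because they name several genes.

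The injected factor was checked against the labels. In the brighter of its probe sets, nkx2-5.S had signals of 57.4 to 138 in GFP and 122 to 233 in Nkx2-5+GFP embryos (log2 difference 0.77, adjusted p by limma = 0.0431, exact permutation p = 0.00866), so 5 of 6 Nkx2-5+GFP embryos were above the GFP range. Its other probe set differed by 0.52 (adjusted p by limma = 0.0731, exact permutation p = 0.00433), also with 5 of 6 above the GFP range. Whether either probe set detects the injected mRNA is not stated. The enhanced GFP control probe set read 63.3 to 276 and 91.8 to 369, overlapping ranges in groups that both received GFP mRNA. Correlations between arrays ran from 0.954 to 0.982.

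Of the 68 genes, 1 rose in Nkx2-5+GFP embryos and 0 fell, and 67 did not pass the test, where limma called 6.38% of all probe sets changed at an adjusted p under 0.05, 3.12% higher and 3.26% lower. The gene that rose was hnrnph1.L, which encodes an hnRNP that binds runs of G and whose S copy was not analysed here. Most of the others nonetheless had slightly higher means in Nkx2-5+GFP embryos: 57 of 68 log2 differences were above 0, against 47.7% of all probe sets, and the median was 0.14 against -0.015 over all probe sets. Whole-embryo RNA cannot tell fewer cells with a transcript from less of it per cell.

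At an unadjusted p under 0.05, limma placed 23 members higher and 1 lower, which is 33.8% and 1.47% of them, while 24.3% of all probe sets passed the same rule, 10.9% higher and 13.3% lower. Among the 7746 probe sets above the median brightness, to which nearly all members belong, these shares were 13.6% and 19.2%, 45.7% of differences were above 0, and the median was -0.025. In the 3873 brightest probe sets the median was 0.0094, 51.9% of differences were above 0, and limma placed 622 higher and 667 lower at an unadjusted p under 0.05. Neither set matches the members in brightness: the median of the mean log2 values was 12.34 in the members, 10.29 in the 7746 and 11.40 in the 3873. In 61 of the 68 members the 95% interval of the difference lay within 1.5-fold in either direction, and the 7 whose interval reached further were hnrnpa0.S, prpf4b.L, prpf4b.S, sf3b4.S, sf3b5.S, sf3b6.S and srsf6.L. With quantile normalization the median of the members was 0.085 in place of 0.14 and 50 of 68 were above 0. Over all probe sets the median was then -0.011, with 48.3% above 0. With scaling by the array median the members had a median of 0.19 with 60 above 0. That setting also moved all probe sets up, to a median of 0.028 with 54.0% above 0. The median of the members minus that of all probe sets was 0.096 with quantile normalization and 0.17 with median scaling, against 0.16 in the main fit.

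**Figure D1:**
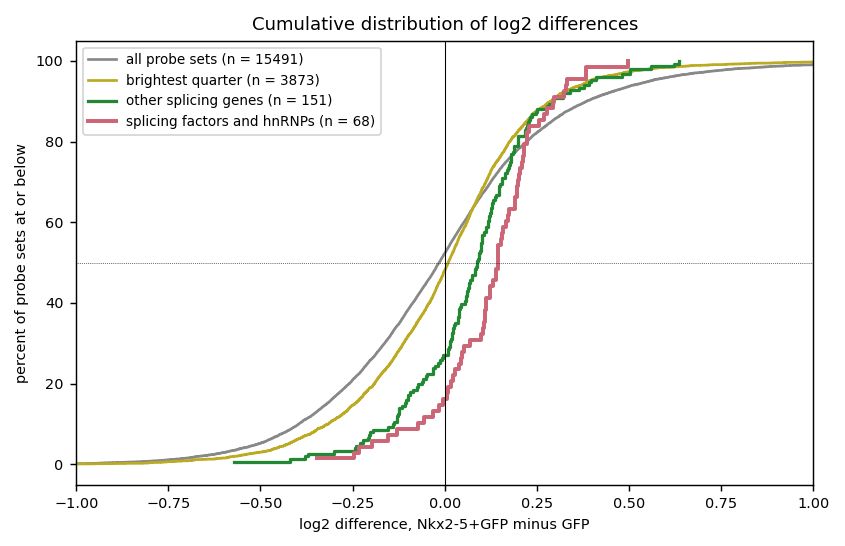
Cumulative percent of probe sets (y axis) at or below each log2 difference between Nkx2-5+GFP and GFP embryos (x axis) for the 68 splicing factor and hnRNP genes, 151 other splicing genes, all 15491 probe sets and the 3873 brightest, drawn between -1 and 1. At its median, 0.14, the curve of the 68 genes lies to the right of the others, whose medians are 0.088, -0.015 and 0.0094 in that order. Its differences run from -0.35 to 0.50, and the other curves reach further at both ends.

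**Figure D2:**
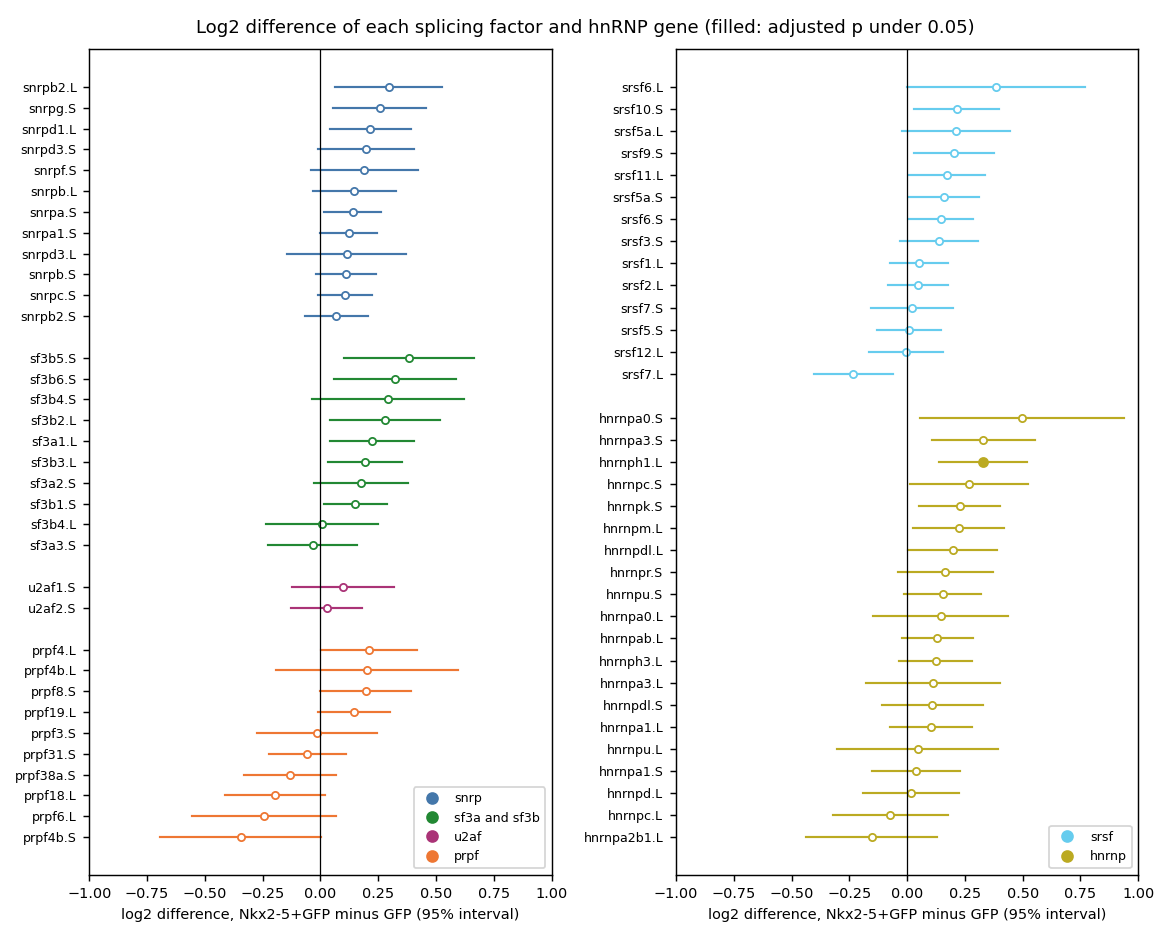
Log2 difference between Nkx2-5+GFP and GFP embryos (x axis) of each of the 68 genes, ordered within families, with the 95% interval of limma over 12 embryos as a bar and a filled point for an adjusted p under 0.05. All 12 snrp genes lie above 0, prpf genes lie on both sides, and the only filled point is hnrnph1.L.

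The 12 snrp genes encode proteins of the U1 and U2 snRNPs and of the Sm ring, the protein core shared by most spliceosomal snRNPs. All 12 had higher means in Nkx2-5+GFP embryos, with log2 differences from 0.069 to 0.30 and a median of 0.14, and 0 of 12 passed the test. Among the 7 measured copies of Sm ring genes, snrpg.S had signals of 3984 to 5542 (median 4857) in GFP embryos and 4958 to 6511 (median 5609) in Nkx2-5+GFP embryos, a log2 difference of 0.26 (SE 0.094, adjusted p by limma = 0.111). All 6 Nkx2-5+GFP embryos lay above the GFP median, and 3 lay above the highest GFP embryo. snrpd1.L, another Sm ring gene, ran from 5323 to 6779 and from 5927 to 8077, with a log2 difference of 0.22 (adjusted p by limma = 0.121). Its second probe set, of nearly the same brightness, differed by 0.20. The Sm ring genes snrpb.L, snrpb.S, snrpd3.L, snrpd3.S and snrpf.S had differences of 0.15, 0.11, 0.11, 0.20 and 0.19.

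snrpb.S had 24832 ± 2023 and 26726 ± 809 (SD, n = 6 each), and its 95% interval of -0.020 to 0.24 on the log2 scale lay below a difference of 0.25. The U1 protein genes snrpa.S and snrpc.S were tight among embryos. snrpa.S, whose protein binds a stem-loop of U1 RNA, lay at 13528 to 15551 (median 13831) in GFP and 14589 to 16930.2 (median 15447) in Nkx2-5+GFP embryos, so that 5 of the 6 GFP embryos were below every Nkx2-5+GFP embryo. The difference was 0.14 (SE 0.059, adjusted p by limma = 0.158). snrpc.S, for the protein that steadies U1 on the start of the intron, had the same arrangement, with 5 of 6 GFP embryos below all Nkx2-5+GFP embryos and a difference of 0.11 (adjusted p by limma = 0.252). Both sizes depended on the processing. Over all alternatives run, snrpa.S ranged from 0.019 to 0.19 and snrpc.S from 0.019 to 0.16. With each embryo left out in turn, the lowest values were 0.11 for snrpa.S and 0.082 for snrpc.S. Of the U2 protein genes, snrpb2.L differed by 0.30 (SE 0.11, adjusted p by limma = 0.112), the largest of the family, with GFP embryos at 1268 to 2017 (median 1787) and Nkx2-5+GFP embryos at 1799.5 to 2363 (median 2153). A second, slightly dimmer snrpb2.L probe set differed by 0.078, and the S copy by 0.069. snrpa1.S, the partner of snrpb2 in the U2 snRNP, differed by 0.12, and its other 3 probe sets by -0.010, 0.051 and 0.31. Over the alternatives run, the difference in the chosen snrpa1.S probe set ranged from 0.017 to 0.17.

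The SF3a and SF3b complexes hold the U2 snRNP on the branch point. Of their 10 measured genes, 9 had higher means in Nkx2-5+GFP embryos and 0 passed, with a median log2 difference of 0.21, the highest of the families. At an unadjusted limma p under 0.05, 6 were higher and 0 lower, beside 10.9% higher and 13.3% lower of all probe sets. sf3b5.S, for a small SF3b subunit, had signals of 3598 to 5550.5 (median 4776) in GFP embryos and 4532 to 7629 (median 5903) in Nkx2-5+GFP embryos, a log2 difference of 0.38 (SE 0.13, adjusted p by limma = 0.0929). In Nkx2-5+GFP embryos 5 of 6 values exceeded the highest GFP embryo, and the remaining one, embryo 5, was the lowest of its group. sf3b6.S, for the subunit that lies at the branch point, was at 302 to 476 (median 351) and 377 to 534 (median 467), and differed by 0.32 (adjusted p by limma = 0.125). Both passed when 1 embryo was left out: sf3b6.S without GFP embryo 5 (adjusted p by limma = 0.0475) and sf3b5.S without Nkx2-5+GFP embryo 5 (adjusted p by limma = 0.0346). Each passed in only 1 of 22 alternatives. Those fits called 9.58% and 9.59% of all probe sets, against 6.38% with all embryos, and 3 of 68 members each.

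sf3b1.S encodes the large subunit that grips the branch point helix. Its values of 8741 ± 613 and 9701 ± 515 (SD, n = 6 each) gave a difference of 0.15 (95% interval 0.014 to 0.29, adjusted p by limma = 0.163), and 4 Nkx2-5+GFP embryos lay above the GFP range. The scaffold gene sf3b3.L differed by 0.19 (adjusted p by limma = 0.134). Its adjusted p by limma was 0.0434 without Nkx2-5+GFP embryo 5, in the fit that called 9.59% of all probe sets. sf3b3.L passed in only 1 of 22 alternatives. sf3b2.L differed by 0.28 (adjusted p by limma = 0.143), while a dimmer sf3b2.L probe set differed by 0.022. The SF3a genes split. sf3a1.L and sf3a2.S differed by 0.22 and 0.17, and sf3a3.S, at 4532 to 5991 (median 5751) in GFP embryos and 4861 to 6443 (median 5187) in Nkx2-5+GFP embryos, by -0.033 (95% interval -0.23 to 0.16). Both measured subunits of U2AF had small differences that did not pass. u2af1.S, which reads the last bases of the intron, differed by 0.10 (95% interval -0.12 to 0.32), and u2af2.S, which binds the pyrimidine tract, by 0.027 (95% interval -0.13 to 0.18). A dimmer u2af2.S probe set differed by 0.15.

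The prpf genes, named after yeast pre-mRNA processing mutants, were split in direction. Of 10, 4 had higher and 6 lower means in Nkx2-5+GFP embryos, 0 passed, and the median log2 difference was -0.036. Those above 0 were prpf8.S, prpf4.L, prpf4b.L and prpf19.L. prpf8.S encodes the large U5 protein at the heart of the spliceosome. Its GFP embryos had signals of 3362 to 4741 (median 4645) and its Nkx2-5+GFP embryos 4317 to 5751 (median 4942), and 5 of the 6 Nkx2-5+GFP embryos exceeded every GFP embryo, but the difference of 0.20 did not pass (adjusted p by limma = 0.213). prpf4.L, a U4/U6 protein gene, differed by 0.21 and prpf19.L, for the ubiquitin ligase at the core of a complex that activates the spliceosome, by 0.14. A second prpf19.L probe set, at a mean log2 value of 11.81 against 13.03, differed by -0.085.

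Below 0 lay prpf6.L, which joins the U5 and U4/U6 particles, prpf18.L, which acts at exon joining, prpf38a.S, prpf31.S, prpf3.S and prpf4b.S. prpf6.L had 378 to 719.5 (median 446) in GFP and 335 to 431 (median 397) in Nkx2-5+GFP embryos. All 6 Nkx2-5+GFP embryos were below the GFP median, the ranges overlapped, and the difference of -0.25 did not pass (adjusted p by limma = 0.332). prpf18.L differed by -0.20 (95% interval -0.41 to 0.021, adjusted p by limma = 0.257) and prpf38a.S by -0.13. The U4/U6 protein genes prpf31.S and prpf3.S differed by -0.057 and -0.014. A dimmer prpf31.S probe set differed by 0.026, and a dimmer prpf3.S probe set by -0.32. prpf4b.S, for a kinase that phosphorylates tri-snRNP proteins, had the lowest difference of all 68 genes, -0.35 (adjusted p by limma = 0.210), with GFP embryos at 3177 to 4047 (median 3767) and Nkx2-5+GFP embryos spread from 1626 to 3794. Scaling by the array median put the family median at 0.014, against -0.036 without it. The same scaling moved the median over all probe sets from -0.015 to 0.028.

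SR proteins carry RNA recognition motifs and a tail rich in arginine and serine, and they promote splice site use from exons. Of 14 srsf genes, 12 had higher means in Nkx2-5+GFP embryos, 2 lower, and 0 passed, with a median log2 difference of 0.14. Quantile normalization turned srsf1.L, srsf5.S and srsf7.S below 0. srsf2.L, at 41712 ± 2694 and 43102 ± 2849 (SD, n = 6 each), differed by 0.047 (95% interval -0.082 to 0.18), srsf1.L by 0.052 (95% interval -0.075 to 0.18) and srsf5.S by 0.0082 (95% interval -0.13 to 0.15). The other srsf1.L probe sets differed by 0.031 and, in one at signals of 139.7 to 216, by 0.27, where the groups did not overlap but the difference did not pass (adjusted p by limma = 0.197). The other srsf5.S probe sets, which can detect further transcripts, differed by -0.18 and -0.12. srsf3.S differed by 0.14, and with a limma adjusted p of 0.309 did not pass.

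Among the other srsf genes, srsf9.S had GFP signals of 2734 to 3381 (median 3237) and Nkx2-5+GFP signals of 3202 to 4307 (median 3643), and 5 of 6 Nkx2-5+GFP embryos exceeded the GFP range. Its difference was 0.20 (SE 0.082, adjusted p by limma = 0.140). srsf10.S, which can act as a repressor of splicing, differed by 0.21 (adjusted p by limma = 0.140) and srsf11.L by 0.17 (adjusted p by limma = 0.181). srsf6.L varied widely among GFP embryos, from 4084 to 8938, against 7261 to 9554 in Nkx2-5+GFP embryos, and differed by 0.38 (SE 0.18, adjusted p by limma = 0.207), while srsf6.S differed by 0.15. srsf5a.L and srsf5a.S differed by 0.21 and 0.16, and srsf12.L by -0.0044. Among the 11 members with lower means, srsf7.L had the smallest p. Its GFP embryos lay at 1935 to 2167 (median 2043) and its Nkx2-5+GFP embryos at 1557 to 1984 (median 1742), so that all 6 Nkx2-5+GFP embryos were below the GFP median, and the difference of -0.23 (SE 0.080) did not pass (adjusted p by limma = 0.0917).

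The 20 hnrnp genes had 18 means higher and 2 lower in Nkx2-5+GFP embryos, with a median log2 difference of 0.14, and 1 of them passed. Quantile normalization turned hnrnpa1.L, hnrnpa1.S and hnrnpu.L below 0. hnrnph1.L had signals of 922 to 1236 (median 1123) in GFP embryos and 1281 to 1564 (median 1365) in Nkx2-5+GFP embryos. All 6 Nkx2-5+GFP embryos lay above all 6 GFP embryos, the only member for which the groups did not overlap, where the groups did not overlap in 2.99% of all probe sets. It rose from 1108 ± 103 to 1393 ± 117 (SD, 6 embryos each), which is a log2 change of 0.33 (SE 0.090, adjusted p by limma = 0.0426, 2-sided exact permutation p = 0.00216, the smallest the design allows). The call depended on the set of embryos: it was lost without any 1 embryo except GFP embryo 5 or Nkx2-5+GFP embryo 5 (limma adjusted p from 0.0268 to 0.102 over the 12 embryos left out in turn). It was lost as well in 3 of 10 other settings, among them the fit without the intensity trend and the fit with the 3' to 5' ratio of beta-actin as a covariate, at limma adjusted p values of 0.0725 and 0.155. The size stayed between 0.28 and 0.38 over all alternatives run.

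hnrnph3.L, a relative of hnrnph1.L, differed by 0.12 and did not pass, and its other 3 probe sets differed by 0.13, 0.074 and 0.18. Among the A and B type hnRNPs, which often silence exons, hnrnpa3.S had 2024 to 3459.7 (median 2705) in GFP and 3224 to 3901 (median 3384) in Nkx2-5+GFP embryos. All GFP embryos but embryo 5 were below every Nkx2-5+GFP embryo. Its difference of 0.33 (SE 0.11) did not pass (adjusted p by limma = 0.0736) with all embryos and passed without GFP embryo 5, at 0.40 (adjusted p by limma = 0.0229). In that fit 9.58% of all probe sets were called, against 6.38% with all embryos. hnrnpa3.S passed in only 1 of 22 alternatives, and the L copy, hnrnpa3.L, differed by 0.11 (adjusted p by limma = 0.675). hnrnpa0.S had the largest difference of all 68 genes, 0.50 (SE 0.21, adjusted p by limma = 0.155), with 5 Nkx2-5+GFP embryos between 9571 and 12354, above the GFP range of 4715 to 8762, and embryo 3 at 5081. Without that embryo the difference was 0.68 and passed (adjusted p by limma = 0.0311), in a fit that called 5.12% of all probe sets and 1 member. hnrnpa0.S passed in only 1 of 22 alternatives, and its exact permutation p with all embryos was 0.0844. The L copy, hnrnpa0.L, differed by 0.15 (adjusted p by limma = 0.567).

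hnrnpa1, a well-studied antagonist of SR proteins, did not pass in either copy. hnrnpa1.L differed by 0.10 (95% interval -0.074 to 0.28) and hnrnpa1.S by 0.038 (95% interval -0.15 to 0.23). Of their other 5 probe sets, 4 differed by 0.16 to 0.18 and 1, the dimmest, by -0.028, and those ending in x_at or a_at can detect more than 1 transcript. hnrnpab.L, known in frog oocytes as a binder of localised Vg1 mRNA, differed by 0.13, and hnrnpa2b1.L, at 234 ± 33.5 in GFP embryos (SD, n = 6), by -0.15. hnrnpk.S, which binds runs of C, was at 7343 to 10011 (median 9145) in GFP and 9593 to 11105 (median 10199.9) in Nkx2-5+GFP embryos, with 5 of 6 GFP embryos below every Nkx2-5+GFP embryo and a difference of 0.23 (adjusted p by limma = 0.106). A dimmer hnrnpk.S probe set differed by 0.029. hnrnpm.L differed by 0.22 (adjusted p by limma = 0.154) and hnrnpr.S by 0.17. Dimmer hnrnpr.S probe sets differed by 0.47, 0.17 and -0.13. The AU-rich element binder gene hnrnpd.L differed by 0.016, and its relatives hnrnpdl.L and hnrnpdl.S by 0.20 and 0.11. hnrnpu.L and hnrnpu.S, for a protein that also binds chromatin-associated RNA, differed by 0.045 and 0.15, and hnrnpc.L and hnrnpc.S, which bind runs of U, by -0.073 and 0.27.

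**Figure D3:**
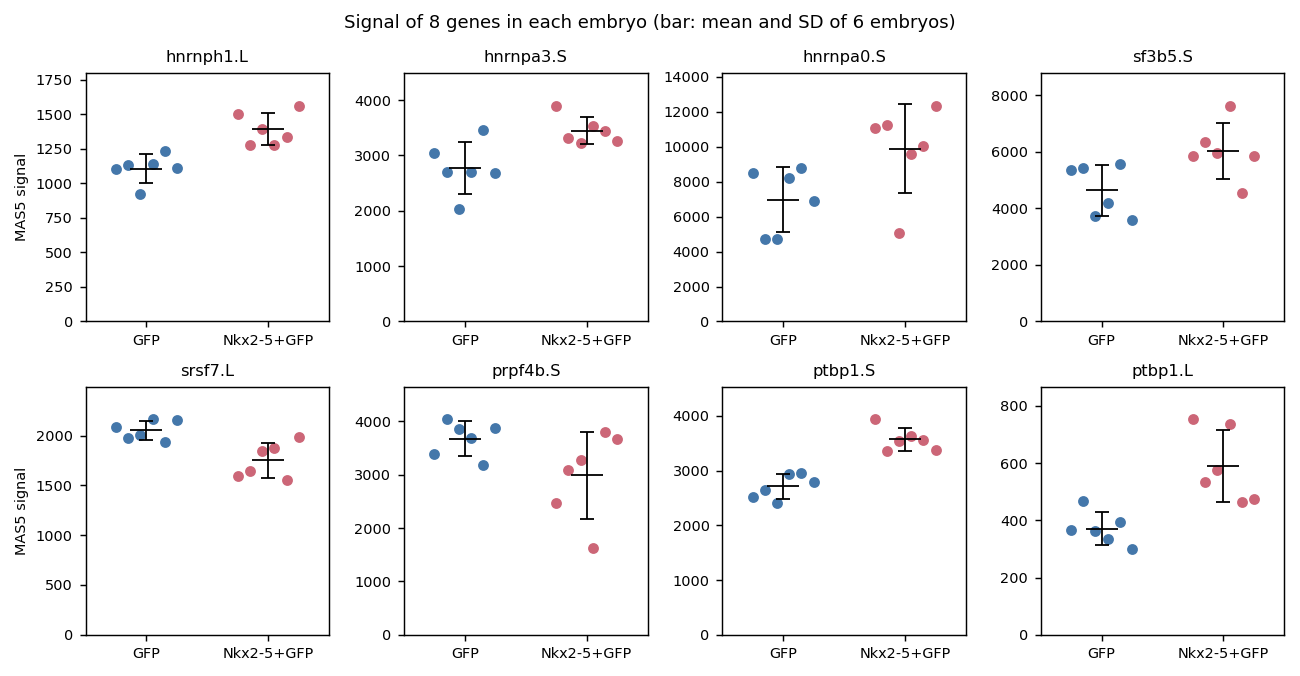
MAS5 signal on a linear axis from 0 (y axis) in each of 6 GFP and 6 Nkx2-5+GFP embryos for 6 splicing factor and hnRNP genes and both copies of ptbp1, with bars for the mean and SD of 6 embryos. The groups do not overlap for hnrnph1.L and ptbp1.S, and in hnrnpa0.S a single Nkx2-5+GFP embryo at 5081 lies far below the other 5.

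Both copies were measured for 14 of the genes, and their differences had the same sign in 11 pairs. Whether the copies differed unequally was tested within embryos, as the log2 value of the L copy minus that of the S copy, by exact permutation (2-sided, 924 ways to split the 12 embryos). 4 of 14 pairs had an exact p under 0.05 and 0 of 14 passed after Benjamini-Hochberg adjustment over the pairs. srsf7 was first, with -0.23 for srsf7.L and 0.022 for srsf7.S, a difference between copies of -0.25 (exact permutation p = 0.0152, adjusted p = 0.101). In prpf4b the copies ran in opposite directions, 0.20 for prpf4b.L and -0.35 for prpf4b.S (exact permutation p = 0.0173, adjusted p = 0.101), but a dimmer prpf4b.L probe set differed by -0.24, in the direction of the S copy. In sf3b4, 0.0060 for sf3b4.L stood against 0.29 for sf3b4.S (exact permutation p = 0.0216, adjusted p = 0.101), and in hnrnpc, -0.073 for hnrnpc.L against 0.27 for hnrnpc.S (exact permutation p = 0.0390, adjusted p = 0.136). In snrpb and hnrnpa1 the differences between copies were 0.036 and 0.065. The probe sets of hnrnpa1 and the S copy of hnrnpu can detect more than 1 transcript. Over all members the median difference was 0.14 for L copies and 0.15 for S copies.

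**Figure D4:**
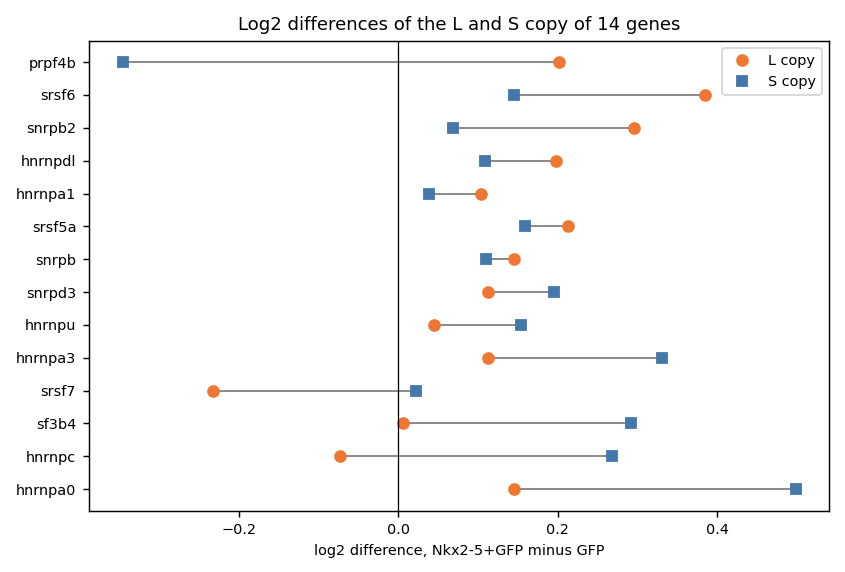
Log2 difference between Nkx2-5+GFP and GFP embryos (x axis) of the L copy (circles) and the S copy (squares) of the 14 genes (y axis) measured in both copies, ordered by the difference between copies. Copies lie on the same side of 0 in 11 of 14 genes, and the widest gap is in prpf4b.

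Over the whole families, 21 symbols had more than 1 probe set. Of the 35 probe sets not chosen by brightness, 0 passed limma's test, 1 had groups that did not overlap and 4 had an unadjusted p under 0.05. Over all probe sets these shares were 6.38%, 2.99% and 24.3%. Of the 35, 27 had the sign of the chosen probe set and 8 the opposite sign.

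How far the members varied together among embryos was described next. For each embryo, the log2 values of the 68 genes were centred on each gene's mean over the 12 embryos and averaged. The means of the GFP embryos 1 to 6 were -0.020, -0.039, -0.18, -0.023, 0.015 and -0.12, and those of the Nkx2-5+GFP embryos 1 to 6 were 0.11, 0.068, 0.0073, 0.13, 0.011 and 0.040. GFP embryos 3 and 6 were the lowest and Nkx2-5+GFP embryos 4 and 1 the highest, and GFP embryo 5 lay within the Nkx2-5+GFP range. In GFP embryo 3, 55 of 68 members were below their own mean, and in Nkx2-5+GFP embryo 4, 55 were above it. The lowest of the 12 embryos was a GFP embryo for 54 members, or 79.4%, against 45.3% of all probe sets, and GFP embryos 3 and 6 accounted for 18 and 14 of these. The highest was an Nkx2-5+GFP embryo for 58 members, or 85.3%, against 51.2% of all probe sets. Without GFP embryo 3 the median log2 difference of the members was 0.12, and without Nkx2-5+GFP embryo 4 it was 0.12. These means describe the list and carry no test.

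By family, the snrp genes had means from -0.24 to 0.0072 in GFP embryos and from 0.033 to 0.16 in Nkx2-5+GFP embryos. The sf3a and sf3b genes spread further, from -0.25 to 0.028 and from -0.077 to 0.23, with Nkx2-5+GFP embryo 5 within the GFP range. In the srsf genes the ranges were -0.12 to 0.0049 and -0.019 to 0.10, and in the hnrnp genes -0.23 to 0.032 and -0.043 to 0.19. The prpf genes followed the others only in part. GFP embryos 4 and 6, low in the snrp and srsf genes, had the highest prpf means, at 0.14 and 0.073. GFP embryo 3 had the lowest prpf mean of the GFP embryos, -0.083. The u2af genes were high in GFP embryos 4 and 5, at 0.11 and 0.14, and low in GFP embryo 6, at -0.17. The median SD of single members over the 6 embryos was 0.15 on the log2 scale in GFP and 0.14 in Nkx2-5+GFP embryos, against 0.18 and 0.20 over the 7746 probe sets above the median brightness, 0.16 and 0.17 over the 3873 brightest, and 0.15 and 0.18 over the other splicing genes. In the srsf genes the SDs were 0.10 and 0.13.

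**Figure D5:**
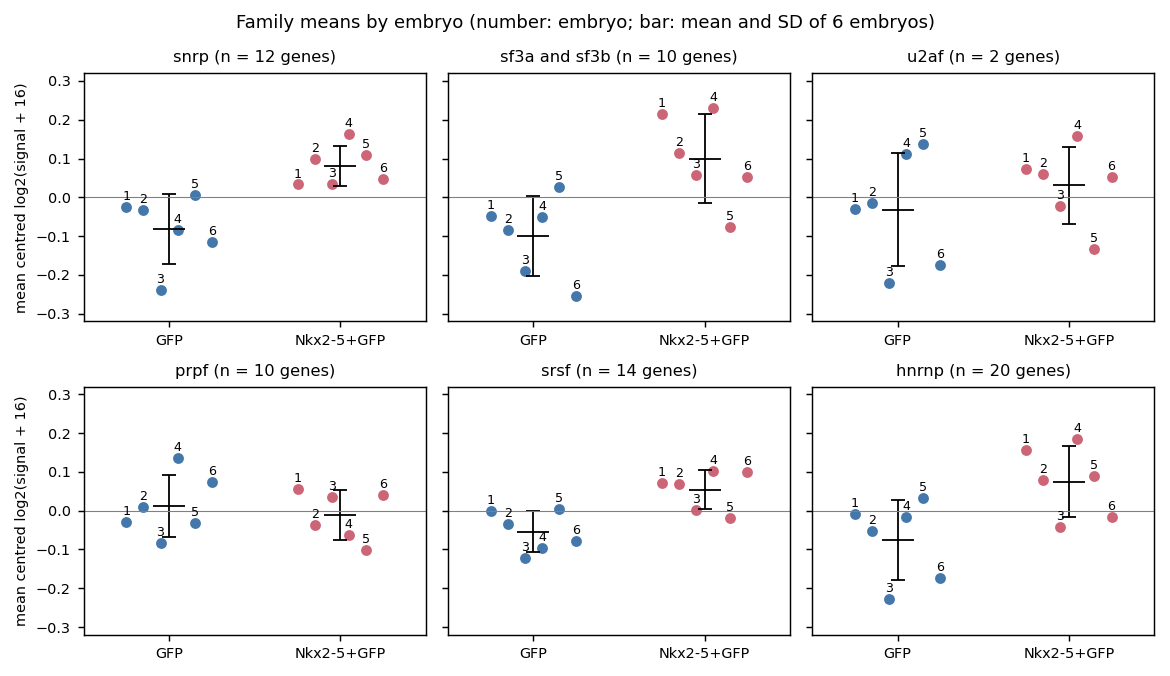
Mean of the centred log2(signal + 16) values of each family (y axis) in the 6 GFP and 6 Nkx2-5+GFP embryos, numbered by embryo, with bars for the mean and SD of 6 embryos. GFP embryo 3 is lowest in the snrp, u2af, srsf and hnrnp panels, the snrp groups do not overlap, and the prpf groups overlap widely.

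Several other measures were set beside the members. They did not all follow the members from embryo to embryo, and their part in these results was not tested. Of 20 measured maternal and germ plasm genes, 19 had lower means in Nkx2-5+GFP embryos, 4 fell and 0 rose, and their summed signal ran from 46496 to 59036 in GFP and from 41570.2 to 49795 in Nkx2-5+GFP embryos. Their centred means were highest in GFP embryos 6 and 3, at 0.38 and 0.33, the embryos in which the members were lowest. Of 13 epidermal genes, 13 had higher means and 9 rose, with a summed signal from 29546 to 36686 in GFP and from 42058 to 51471 in Nkx2-5+GFP embryos. Of 75 genes taken by a ribosomal protein prefix, 5 of them S6 kinase genes, 70 had higher means and 14 rose, with a summed signal from 284118 to 380334 in GFP and from 352983 to 439295 in Nkx2-5+GFP embryos. Of 14 endoderm genes, 13 had lower means, 1 rose and 1 fell, with a median log2 difference of -0.11. Of 13 neural plate genes, 9 had lower means, 0 rose and 1 fell, with a median of -0.22. Of 22 mesoderm genes, 13 had higher means, 3 rose and 2 fell, with a median of 0.12. The mesoderm, endoderm and neural plate genes had summed signals from 60139 to 65869 in GFP and from 61635 to 71324 in Nkx2-5+GFP embryos, from 23104 to 32604 in GFP and from 23814 to 29060.0 in Nkx2-5+GFP embryos and from 30749 to 36265 in GFP and from 27392 to 32524 in Nkx2-5+GFP embryos. The mesoderm gene tbxt.S, at 7781 ± 582 in GFP embryos (SD, n = 6), had its lowest signal at 6967 over the 12 embryos, and 9 genes of blood and heart differentiation together reached at most 347. The beta-actin 3' to 5' signal ratio, which rises as the labelled RNA shortens, was 2.81 to 4.27 in GFP and 2.68 to 3.33 in Nkx2-5+GFP embryos. The GAPDH ratio of the same kind was 23.0 to 47.3 in GFP embryos, the highest in embryo 3, where the members were lowest, and 29.9 or less in the other 5. In Nkx2-5+GFP embryos it was 18.6 to 33.5, highest in embryos 3 and 5, where the members were lowest of that group. In GFP embryo 6, where the members were also low, it was 25.9. With the beta-actin ratio in the fit, limma called 0 members and 160 probe sets, and the median of the members was 0.15. In GFP embryos 1 to 6 the beta-actin ratio was 4.27, 2.93, 3.40, 4.15, 3.03 and 2.81. The member means in the same order were -0.020, -0.039, -0.18, -0.023, 0.015 and -0.12. Its mean was 3.43 in GFP and 2.98 in Nkx2-5+GFP embryos, so ratio and group go together in part. The GAPDH ratio was not put in a fit. The part of either ratio was not tested.

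Beyond the named families, 151 other genes of splicing and nuclear RNA binding were measured, from a list that holds helicases, LSm proteins, exon junction proteins, SMN complex genes and splicing regulators. Of these, 4 rose, 1 fell and 146 did not pass, beside 3.12% higher and 3.26% lower of all probe sets, and 110 had higher means in Nkx2-5+GFP embryos, with a median log2 difference of 0.088. Both copies of ptbp1 rose. PTBP1, also called hnRNP I, binds pyrimidine tracts and represses exons, and in frog oocytes it binds Vg1 mRNA. ptbp1.S had 2414 to 2963 (median 2715) in GFP and 3363 to 3946 (median 3555) in Nkx2-5+GFP embryos, and the groups did not overlap. Its log2 difference was 0.40 (SE 0.074, adjusted p by limma = 0.00829), and the call was lost in 1 of 22 alternatives, with the beta-actin ratio as a covariate (adjusted p by limma = 0.0505). ptbp1.L, at 298 to 469 (median 363) and 465 to 754 (median 555), differed by 0.64 (SE 0.15, adjusted p by limma = 0.0234), with 5 of 6 Nkx2-5+GFP embryos above every GFP embryo and 0.107 as the highest limma adjusted p over the alternatives. Its call was lost in 5 of 22 alternatives.

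pspc1.L, for a protein of nuclear paraspeckles, rose by 0.37 (SE 0.093, adjusted p by limma = 0.0336) with means of 1039.7 ± 123 for GFP embryos and 1339 ± 96.8 for Nkx2-5+GFP embryos (SD, 6 embryos each), and its groups did not overlap. qki.S, an RNA-binding regulator of splicing, rose by 0.34 (SE 0.095, adjusted p by limma = 0.0457), while qki.L was also measured and differed by 0.062 without passing (adjusted p by limma = 0.767). tgs1.L, which encodes the enzyme that adds methyl groups to the cap of snRNAs, fell by 0.57 in log2 terms (SE 0.15, adjusted p by limma = 0.0368), with GFP embryos at 1845 to 3537 (median 2478) and Nkx2-5+GFP embryos at 1235 to 2036 (median 1875). Leaving out each of the 12 embryos in turn, the call was lost 8 times for pspc1.L, 10 times for qki.S and 9 times for tgs1.L.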

How the data were processed

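Total RNA of 12 single whole embryos, 6 GFP and 6 Nkx2-5+GFP, was labelled with biotin and hybridised to 1-colour Affymetrix arrays, 1 per embryo, per the labels' protocols. The labelling took 2 cycles and started from 100 ng of total RNA. The authors deposited linear intensity values per probe set, made with MAS5, per the submitters' processing notes. No version or scaling target is stated there, and detection calls were not used here. From the values, each array had been scaled to a common trimmed mean. No depth applies to arrays, and the number of embryos limits the precision.

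Signals were taken as log2(signal + 16), so folds of dim probe sets are understated. Of 15611 probe sets, 120 controls were left out and 15491 tested with no filter, with limma 3.58.1 in R 4.3.3 (lmFit, eBayes with an intensity trend, 2-sided). Adjusted p-values are Benjamini-Hochberg over all 15491, called under 0.05, and SEs are moderated. The fit was tested on simulated data, with changes placed in brighter probe sets. It recovered 55 of 100 changes of 0.5 on the log2 scale and 94 of 100 changes of 1, with 8 false calls. Smaller changes, the size of most member differences, were not simulated, so a member that did not pass may still differ. Exact permutation tests ran over all 924 assignments and cannot give a p below 0.00216. A difference is Nkx2-5+GFP minus GFP throughout.

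Names came from the platform's probe annotation, in which 9304 probe sets had 1 named gene, 195 several and 5992 none, and were updated by gene number through RefSeq names (9227 matched, 2 symbols changed). 10 members are measured by a probe set that can detect more than 1 transcript. The members and lists were chosen with earlier results of these data known. The rule for genes to name took members that passed, in each family the 2 brightest that did not, their other copies, the other splicing genes that passed and nkx2-5. All further members were described after their values were seen. Alternatives were pseudocounts of 1 and 64, leaving out dimmer probe sets, quantile and median scaling, other variance models, array weights, a replicate block, the beta-actin ratio, other probe set choices, and each embryo left out in turn. Promoter and protein sequences were not analysed here.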

Additional observations from a re-analysis of the deposited data

Results flagged for a closer look

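In 136 groups of 6 embryos (68 genes in each group), 7, or 5.15%, held a single embryo whose gap to its nearest neighbour on the log2 scale exceeded Dixon's 95% value for 6 samples as a share of the group's range, which chance alone does in about 5% of groups. In Nkx2-5+GFP embryos, hnrnpa0.S was low in embryo 3, with a signal of 5081 against a group median of 10567, hnrnpc.L was low in embryo 6, with 4100.0 against 6630.2, and hnrnpdl.S was low in embryo 6, with 9530.0 against 14065. hnrnpc.S was high in embryo 4, with 2500.0 against 1661. In GFP embryos, prpf8.S was low in embryo 3, with 3362 against 4645, srsf9.S was low in embryo 4, with 2734 against 3237, and snrpa.S was high in embryo 4, with 15551 against 13831. Without Nkx2-5+GFP embryo 6 the log2 difference of hnrnpc.L was 0.047, against -0.073 with all embryos.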

How the results depend on the processing

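Without the intensity trend, 437 probe sets were called in place of 988, with 0 members higher and 2 other splicing genes higher and 0 lower. With the beta-actin ratio in the fit, 160 were called, with 0 members and 0 other splicing genes in either direction. With a replicate block, 779 were called and 0 members higher. Same-numbered embryos had correlations of their deviations from -0.147 to 0.131, and 2 of 6 numbers correlated best with themselves, so the numbers were not taken as pairs. Leaving out each embryo in turn gave 285 to 1485 called probe sets, 0 to 3 members higher, 0 lower, 1 to 9 other splicing genes higher, 0 to 1 lower, and a median of the members of 0.12 to 0.16. The most calls came without GFP embryo 5 or Nkx2-5+GFP embryo 5, and the fewest, 285, without Nkx2-5+GFP embryo 1. Small differences changed sign. With quantile normalization hnrnpa1.L was -0.016, hnrnpa1.S -0.026, hnrnpu.L -0.026, srsf1.L -0.049, srsf5.S -0.074 and srsf7.S -0.074. With median scaling, which put the median over all probe sets at 0.028, the prpf median was 0.014, prpf3.S 0.036, sf3a3.S 0.017 and srsf12.L 0.046. With array weights hnrnpu.L was -0.042, sf3b4.L -0.015 and srsf7.S -0.023. With the beta-actin ratio hnrnpd.L was -0.0087, sf3a3.S 0.014 and u2af2.S -0.0014. Over the embryos left out, the ranges that crossed 0 were -0.010 to 0.076 for hnrnpa1.S, -0.12 to 0.047 for hnrnpc.L, -0.035 to 0.066 for hnrnpd.L, -0.046 to 0.14 for hnrnpu.L, -0.079 to 0.0049 for the prpf median, -0.091 to 0.043 for prpf3.S, -0.055 to 0.091 for sf3b4.L, -0.043 to 0.040 for srsf12.L, -0.020 to 0.049 for srsf5.S, -0.023 to 0.066 for srsf7.S and -0.00094 to 0.057 for u2af2.S. The cause was not tested. The other 55 members kept their sign in the alternatives run on their chosen probe sets. These were 22, or 21 for hnrnpa2b1.L, hnrnpa3.L and srsf5a.L, which the fit without dimmer probe sets left out. The exception was srsf2.L, at 0 with quantile normalization. Of the 55 members, 48 were above 0. Some of these came close to 0 in an alternative, among them snrpa.S at 0.019, snrpc.S at 0.019 and snrpa1.S at 0.017. Other probe sets of hnrnpr.S, prpf19.L, prpf31.S, prpf4b.L and snrpa1.S, which are among the 55, had the opposite sign. Quantile normalization gives each rank the same value on every array, and srsf2.L had the highest signal of all probe sets tested on 10 arrays. Its difference in that setting therefore reflects ranks and not the size of the signal. The detection calls were not used here, so no bound from background could be given for dim probe sets.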
